A study of Mus musculus with 24 samples.

Results

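The 9 genes described here, Prickle2, Pakap, Col27a1, Creb5, Ubash3b, Rbms3, Wdfy4, Pde4b and Gcnt2, had longer stretches under H3K4me1 or H3K4me2 peaks in both Kdm6a-mutant lines than in controls of a mouse small cell lung cancer series. They were chosen by those measured values, from 21887 protein-coding genes, so their H3K4me1 and H3K4me2 levels are a description and carry no test. The measure is the number of kb under peaks in a gene window, taken as the gene body plus 10 kb to either side. A gene counts as higher in mutants where the lower mutant line exceeds the higher control line by 2 kb or more, and as lower in the reverse case. That distance is called the gap. By this rule 1284 genes had a gap in favour of the mutant lines in H3K4me1 or H3K4me2, and the 9 genes are among them.

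Chromatin immunoprecipitation with sequencing (ChIP-seq) was done on 4 early-passage tumour lines of the RPP mouse model, in which the tumour suppressors Rb1, Trp53 and Rbl2 are deleted in lung cells, a background that every group shares. Lines 159-1 and 1014 (control lines, or controls) grew from tumours that carried a control guide RNA (sgControl, wild type for Kdm6a), and lines 236L and 236R from tumours that carried a guide RNA against Kdm6a (sgKdm6a, mutant lines, or mutants). No line was treated with a drug, and cells were collected 24 h after plating. H3K4me1, H3K4me2 and H3K27me3 were mapped in 1 library per line and KDM6A protein in the 2 control lines alone, which gives 14 peak lists among 24 samples, the others being input libraries. H3K4me1 had inputs of its own, and the lines were compared within a mark. KDM6A libraries alone were crosslinked a second time, with disuccinimidyl glutarate at 2 mM, per the labels' protocols. The labels do not state whether 236L and 236R are from separate animals or whether a line is 1 clone, so differences between lines measure only the spread of these 4 libraries. Without KDM6A libraries from the mutants, the mutation cannot be checked in these lists. The 2 control H3K4me2 lists are named after the other control line than their sample labels, and the labels were followed here. A longer stretch under peaks can reflect more marked cells or more mark per cell, and these cannot be told apart.

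KDM6A (UTX) is an X-linked enzyme that removes methyl groups from lysine 27 of histone H3, and it is also a subunit of the KMT2C and KMT2D complexes that place H3K4me1 and H3K4me2 at enhancers. H3K27me3 is the repressive mark of the Polycomb complex PRC2. H3K4me1 marks enhancers, and H3K4me2 marks enhancers and promoters, so the same gene can carry both kinds of mark at different places or times.

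The lists were of like length for the H3K4 marks and of unlike length for H3K27me3. Total cover was 109 to 135 Mb for H3K4me1, 73.7 to 87.6 Mb for H3K4me2 and 27.02 to 34.6 Mb for KDM6A. H3K27me3 covered 45.4 and 110.3 Mb in controls against 13.8 and 30.5 Mb in mutants, and read depth is unknown, so shorter lists and fewer marked sites cannot be told apart. The neuroendocrine genes that define this cancer (11 genes, among them Insm1 and Chga) had H3K4me2 peaks at every gene in each of the 4 lines, and 79.1, 89.9, 42.4 and 75.7 kb summed over the list in 159-1, 1014, 236L and 236R. Macrophage markers (16 genes, among them Ptprc, Csf1r and Adgre1) summed to 48.2, 45.5, 164 and 34.5 kb of H3K4me2 in the same order, and to 73.2, 79.9, 263 and 56.1 kb of H3K4me1. None of the 16 was at 0 in 236L in either mark, and Adgre1 was at 0 in both marks in the other 3 lines. Line 236L therefore stood apart from the other 3, with the longest macrophage cover and the shortest neuroendocrine cover. The Y-linked genes Uty and Ddx3y carried H3K4me2 in both controls (3.27 and 3.30 kb, and 2.48 and 2.62 kb) and in neither mutant line, so a difference in sex chromosomes cannot be told apart from genotype. All 9 genes lie on autosomes.

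The reference sequences at 7 transcription starts, read from RefSeq promoters of GRCm38.p6 (mm10), are shown because H3K4 peaks near them differed between the groups. Each runs 5′ to 3′ on the gene's strand from 250 bases before the start to 50 bases after it. The first 4 are the only ones of the 24 listed starts of the 9 genes with an H3K4me1 peak within 2.5 kb in both mutant lines and in neither control line, and the same 4 starts had an H3K4me2 peak in that pattern. Over all 32851 listed starts of the table, 5.06% had that pattern in H3K4me1 and 1.21% in H3K4me2. The fifth, in Creb5, the sixth, in Ubash3b, and the seventh, in Prickle2, are among the others that had longer H3K4me1 and H3K4me2 in both mutant lines. Capitals mark the E-box CANNTG bound by basic helix-loop-helix factors, TGACG of the cAMP response element and TGANTCA of the AP-1 site, searched on both strands.
Pakap start 2, chr4:57567580-57567879, plus strand: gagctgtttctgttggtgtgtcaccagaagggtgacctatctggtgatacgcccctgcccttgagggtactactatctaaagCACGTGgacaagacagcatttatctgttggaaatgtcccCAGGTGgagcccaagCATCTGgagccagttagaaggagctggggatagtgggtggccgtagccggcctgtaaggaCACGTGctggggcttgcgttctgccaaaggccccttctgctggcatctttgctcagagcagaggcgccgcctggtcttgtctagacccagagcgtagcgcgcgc
Pakap start 3, chr4:57567998-57568297, plus strand: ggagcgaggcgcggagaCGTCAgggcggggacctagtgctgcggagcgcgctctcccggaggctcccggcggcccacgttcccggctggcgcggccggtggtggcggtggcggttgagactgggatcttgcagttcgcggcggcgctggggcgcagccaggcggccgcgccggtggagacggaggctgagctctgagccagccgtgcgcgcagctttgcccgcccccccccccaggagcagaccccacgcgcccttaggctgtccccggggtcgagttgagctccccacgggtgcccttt
Pde4b start 2, chr4:102569810-102570109, plus strand: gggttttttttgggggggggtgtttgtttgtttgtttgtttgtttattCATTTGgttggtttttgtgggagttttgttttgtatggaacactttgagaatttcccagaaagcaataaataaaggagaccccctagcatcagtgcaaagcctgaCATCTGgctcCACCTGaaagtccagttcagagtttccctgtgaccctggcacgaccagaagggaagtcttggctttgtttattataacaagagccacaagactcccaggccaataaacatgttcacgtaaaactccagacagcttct
Pde4b start 3, chr4:102587308-102587607, plus strand: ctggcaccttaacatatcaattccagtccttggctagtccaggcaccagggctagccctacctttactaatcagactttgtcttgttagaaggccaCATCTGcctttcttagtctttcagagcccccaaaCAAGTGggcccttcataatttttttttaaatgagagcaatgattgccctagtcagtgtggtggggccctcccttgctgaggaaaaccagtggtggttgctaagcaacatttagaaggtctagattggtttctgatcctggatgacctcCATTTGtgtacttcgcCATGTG
Creb5 start 2, chr6:53573124-53573423, plus strand: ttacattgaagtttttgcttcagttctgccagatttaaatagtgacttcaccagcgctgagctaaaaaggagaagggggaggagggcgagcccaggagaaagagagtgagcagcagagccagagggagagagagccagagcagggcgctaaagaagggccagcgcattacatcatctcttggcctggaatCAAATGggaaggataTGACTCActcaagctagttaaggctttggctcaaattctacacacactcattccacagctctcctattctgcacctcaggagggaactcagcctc
Ubash3b start 1, chr9:41158013-41158312, minus strand: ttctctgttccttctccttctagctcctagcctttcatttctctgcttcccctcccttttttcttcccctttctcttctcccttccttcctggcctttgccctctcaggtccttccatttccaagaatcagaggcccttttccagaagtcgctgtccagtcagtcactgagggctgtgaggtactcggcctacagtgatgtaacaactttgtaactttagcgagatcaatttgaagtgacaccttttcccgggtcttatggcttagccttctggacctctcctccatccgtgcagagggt
Prickle2 start 4, chr6:92481343-92481642, minus strand: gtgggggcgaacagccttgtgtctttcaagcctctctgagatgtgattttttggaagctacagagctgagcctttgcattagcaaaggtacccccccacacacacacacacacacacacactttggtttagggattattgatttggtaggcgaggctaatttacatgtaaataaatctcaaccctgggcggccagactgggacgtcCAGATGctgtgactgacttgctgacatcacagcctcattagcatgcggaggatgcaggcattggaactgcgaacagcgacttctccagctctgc
Pakap start 2 held 4 E-boxes, Pde4b start 2 held 3 and Pde4b start 3 held 4, whereas Ubash3b start 1 held none of the motifs. E-boxes are common: 72.3% of the 32851 promoters in the table hold at least 1, and 20 of the 24 member starts do. TGACG was in 6 of 24 starts against 20.8% of all promoters, and it overlaps the full cAMP response element TGACGTCA, which 1.79% of all promoters hold. Of the 24 starts only Creb5 start 1, the upstream start of a gene whose own product binds that element, held TGACGTCA. TGANTCA was in 1 of 24 starts, Creb5 start 2, against 7.81% of all promoters, and TATAAA in 1 of 24, Rbms3 start 1, against 13.6%. CAGCTG was in 8 starts and CAGATG in 7, against 16.3 and 17.2% of all promoters. The base composition of the starts ranged widely, with 37 CpG at Pakap start 3 and 1 at Pde4b start 3, and 75.3% GC at Pakap start 3 and 43.3% at Pde4b start 2. The median over the 24 starts was 7 CpG, the same as over all promoters.

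Of the single genes, Pde4b and Pakap, which are linked to cAMP signalling, and Creb5, of the CREB/ATF family, come first. Pde4b, a phosphodiesterase that breaks down cAMP, had 2.08 and 1.32 kb of H3K4me1 in 159-1 and 1014, 37.6 kb in 236L and 15.0 kb in 236R. Its H3K4me2 was 2.60, 9.498, 27.6 and 18.2 kb in the same order. Both marks were higher in each mutant line than in either control line, with gaps of 12.9 kb (rank 10 of all genes by H3K4me1) and 8.71 kb (rank 5 by H3K4me2). H3K27me3 went the other way, with 26.5 and 36.1 kb in controls against 2.13 and 4.83 kb in 236L and 236R. Within 2.5 kb of start 2 of Pde4b, shown above, no control line had an H3K4 peak, H3K4me2 covered 5.00 kb in 236L and 1.46 kb in 236R, and H3K27me3 covered 2.72 and 5.00 kb in controls and 0 in both mutant lines. A stretch of H3K4me2 shared by both mutant lines and absent from the control lists, chr4:102569840-102571062, lies across that start. Its bases were 61.4% under H3K27me3 in 159-1 and 100% in 1014, and 0% in both mutant lines. It is 1 of 3 such stretches of at least 500 bases in this window. The longest, chr4:102087142-102088603 at the upstream edge of the gene, was 100% under H3K27me3 in both controls. It was still 92.2 and 100% under H3K27me3 in 236L and 236R. The third, chr4:102279154-102279793, was at 0% in all 4 lines.

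Pakap, the joint locus of paralemmin and a protein that anchors protein kinase A, had 11.2 and 6.12 kb of H3K4me1 in 159-1 and 1014, 109 kb in 236L and 26.8 kb in 236R. H3K4me2 covered 8.34, 7.70, 25.9 and 16.2 kb. The groups did not overlap in either mark, and 236L was far above 236R in H3K4me1. Around starts 2 and 3, which lie inside the gene, H3K4me1 and H3K4me2 peaks were in the mutant lists alone. At start 2 H3K4me2 covered 4.05 kb in 236L and 0.954 kb in 236R. H3K27me3 covered 4.04 and 4.12 kb there in controls, 0 in 236L and 2.498 kb in 236R, so in 236R the start lay under both kinds of peak. At start 1, the upstream start, the control lines already had 2.70 and 2.87 kb of H3K4me2, and 236L and 236R had 2.00 and 3.15 kb, which overlap. Over the whole window H3K27me3 was 52.8 and 82.0 kb in controls against 0 and 8.08 kb.

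Creb5, a basic leucine zipper factor of the CREB/ATF family, had 9.53 and 9.21 kb of H3K4me1 in controls, 90.0 kb in 236L and 24.4 kb in 236R. H3K4me2 was 5.603, 8.62, 21.1 and 11.2 kb. In H3K4me2 the lower mutant line was only 2.60 kb above the higher control line. Creb5 had the longest H3K27me3 cover of the 9 genes, 127 kb in 159-1 and 267 kb in 1014, against 0 in 236L and 9.82 kb in 236R. By that gap it ranked 5 among all genes. At start 1 all 4 lines carried H3K4me2 (1.66, 2.70, 3.82 and 2.62 kb) and 236R still had 4.89 kb of H3K27me3. Near start 2, by contrast, H3K4me2 was 0.291 and 0.738 kb in controls against 4.42 and 1.15 kb, and H3K27me3 2.41 and 5.00 kb against 0 in both mutant lines.

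**Figure D1:**
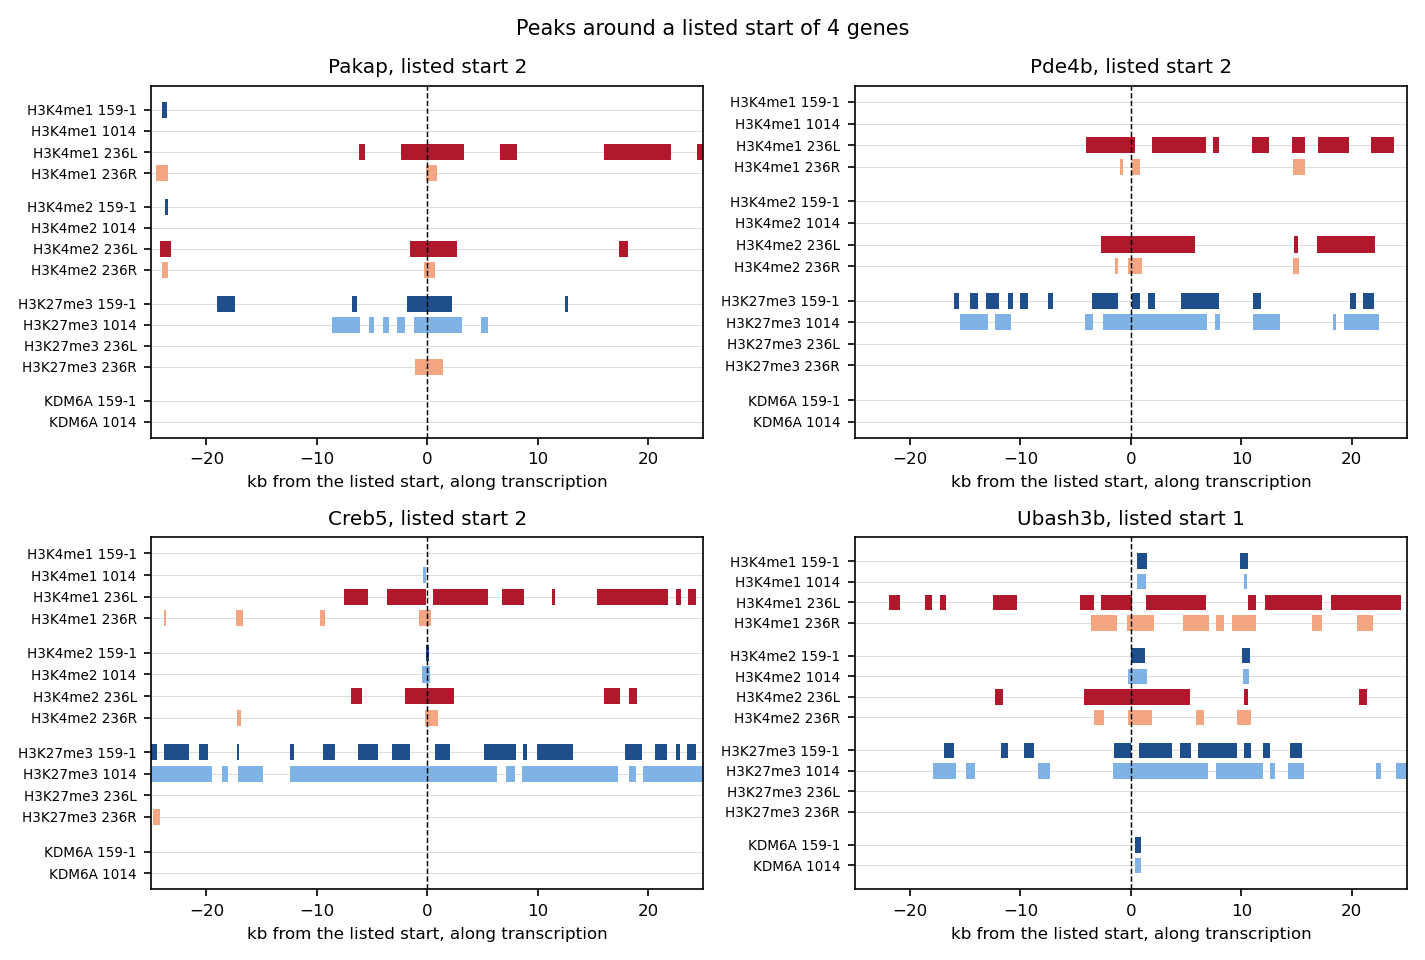
Peaks within 25 kb of a listed transcription start of Pakap, Pde4b, Creb5 and Ubash3b, with position in kb along the direction of transcription on the x axis and 1 row per mark and line (blue, control lines; red, mutant lines). At Pde4b start 2 and Pakap start 2 the H3K4me1 and H3K4me2 bars within 2.5 kb of the start are in 236L and 236R alone, and the H3K27me3 bars within 2.5 kb of the Pde4b start are in controls alone.

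The map of peaks around these starts shows how much wider the peaks of 236L were than those of 236R. Within 25 kb of Pde4b start 2, H3K4me1 covered 17.5 kb in 236L and 2.05 kb in 236R, and within 25 kb of Creb5 start 2 it covered 20.4 and 2.41 kb. No KDM6A peak lay within 25 kb of these starts of Pakap, Pde4b and Creb5 in either control line. Ubash3b start 1, also mapped, had 0.599 kb in 159-1 and 0.569 kb in 1014. The same share over all listed starts is not given here.

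Ubash3b, a phosphatase that dampens signalling from tyrosine kinases of the Syk family, had the largest H3K4me1 gap at any of the 24 starts, 2.72 kb at start 1. Its window had 2.19 and 1.25 kb of H3K4me1 in controls, 71.3 kb in 236L and 16.1 kb in 236R. H3K4me2 was 2.01, 2.23, 21.1 and 5.03 kb. The mutant lines were above the control lines in both marks, but 236L and 236R differed from each other by more than 236R did from the control lines. H3K27me3 was 47.4 and 66.9 kb in controls, and no peak was listed in either mutant line. Start 1 carried H3K4me1 in all lines (0.945, 0.746, 3.78 and 3.67 kb within 2.5 kb), and it is the only one of the 24 with KDM6A peaks within that distance in both controls, of 0.599 and 0.569 kb. The share of all listed starts with KDM6A peaks is not given here, so nothing is read from that count. The longest stretch of new H3K4me1 that both mutants shared in this gene, chr9:41151295-41153304, lay in the gene body 4758 bases from that start, and 69.5 and 100% of it was under H3K27me3 in 159-1 and 1014. The window also holds Crtam, a receptor of cytotoxic lymphocytes.

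Prickle2, a core protein of planar cell polarity, had the largest H3K4me1 gap of all genes, 23.0 kb, with 13.7 and 30.6 kb in controls and 55.1 and 53.6 kb in 236L and 236R. H3K4me2 was 11.1, 7.21, 14.3 and 17.3 kb. Here 236L and 236R were close to each other. H3K27me3 was low in controls as well, 4.45 and 7.23 kb, and no peak was listed in mutants. That small gap was the lowest of the 8 called genes. Start 4, the start nearest the gene's 3′ end, had 2.02 and 1.30 kb of H3K4me2 in controls against 3.32 and 3.95 kb. The longest new H3K4me2 stretch, 3153 bases at chr6:92476746-92479898, lay 1494 bases from start 4 with no H3K27me3 in any line. At start 1, H3K27me3 covered 3.10 and 5.00 kb in controls and 0 in both mutant lines, beside H3K4me2 of 1.16, 0.967, 1.94 and 3.33 kb.

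Col27a1, a fibrillar collagen of cartilage, had 6.15 and 3.99 kb of H3K4me1 in controls and 21.3 and 23.05 kb in 236L and 236R. H3K4me2 was 2.18, 2.495, 7.14 and 4.85 kb, with a gap of 2.36 kb that lay just above the 2 kb limit. The H3K4me2 call was lost when the 10 kb flanks were left out. H3K27me3 was 61.6 and 92.6 kb in controls against 3.19 and 2.03 kb. Its single listed start carried H3K4me2 (2.18, 2.495, 4.03 and 2.64 kb) and H3K27me3 (5.00, 5.00, 2.44 and 2.03 kb) in all 4 lines. Gcnt2, which adds the branches of the I blood group glycan, had 5.05 and 4.29 kb of H3K4me1 in controls, 36.5 kb in 236L and 10.2 kb in 236R, and stood at rank 130. In H3K4me2 it stood at rank 8, with 5.21 and 6.44 kb in controls against 17.1 and 14.7 kb. The mutant lines were close to each other in H3K4me2 and far apart in H3K4me1. H3K27me3 was 8.48 and 24.8 kb in controls and 0 in both mutant lines. Near Gcnt2 start 3 the mutant lines shared 3109 bases of new H3K4me2 at chr13:40918693-40921801, of which 0 and 78.1% lay under H3K27me3 in 159-1 and 1014.

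Wdfy4, a BEACH domain protein that dendritic cells need for cross-presentation, had 1.34 and 1.49 kb of H3K4me1 in controls and 26.6 and 15.0 kb in 236L and 236R. H3K4me2 was 1.46, 1.43, 6.42 and 6.09 kb. Although both mutant lines were higher, they shared 0 kb of new H3K4me1, and at the listed start only 236L had peaks (4.27 kb of H3K4me1 and 2.70 kb of H3K4me2). H3K27me3 was 52.6 and 122 kb in controls against 2.17 and 13.7 kb. The window includes Lrrc18, and that of Col27a1 includes Orm1. Rbms3, a protein that binds single-stranded RNA, was the exception in 2 marks. Its H3K4me1 was 19.6, 0.725, 33.2 and 55.1 kb, with the 2 control lines far apart. Its H3K4me2 was 3.12, 18.96, 15.5 and 24.3 kb, so 1014 lay above 236L and the groups overlapped by 3.47 kb. H3K27me3 was 0, 6.70, 0 and 0 kb.

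**Figure D2:**
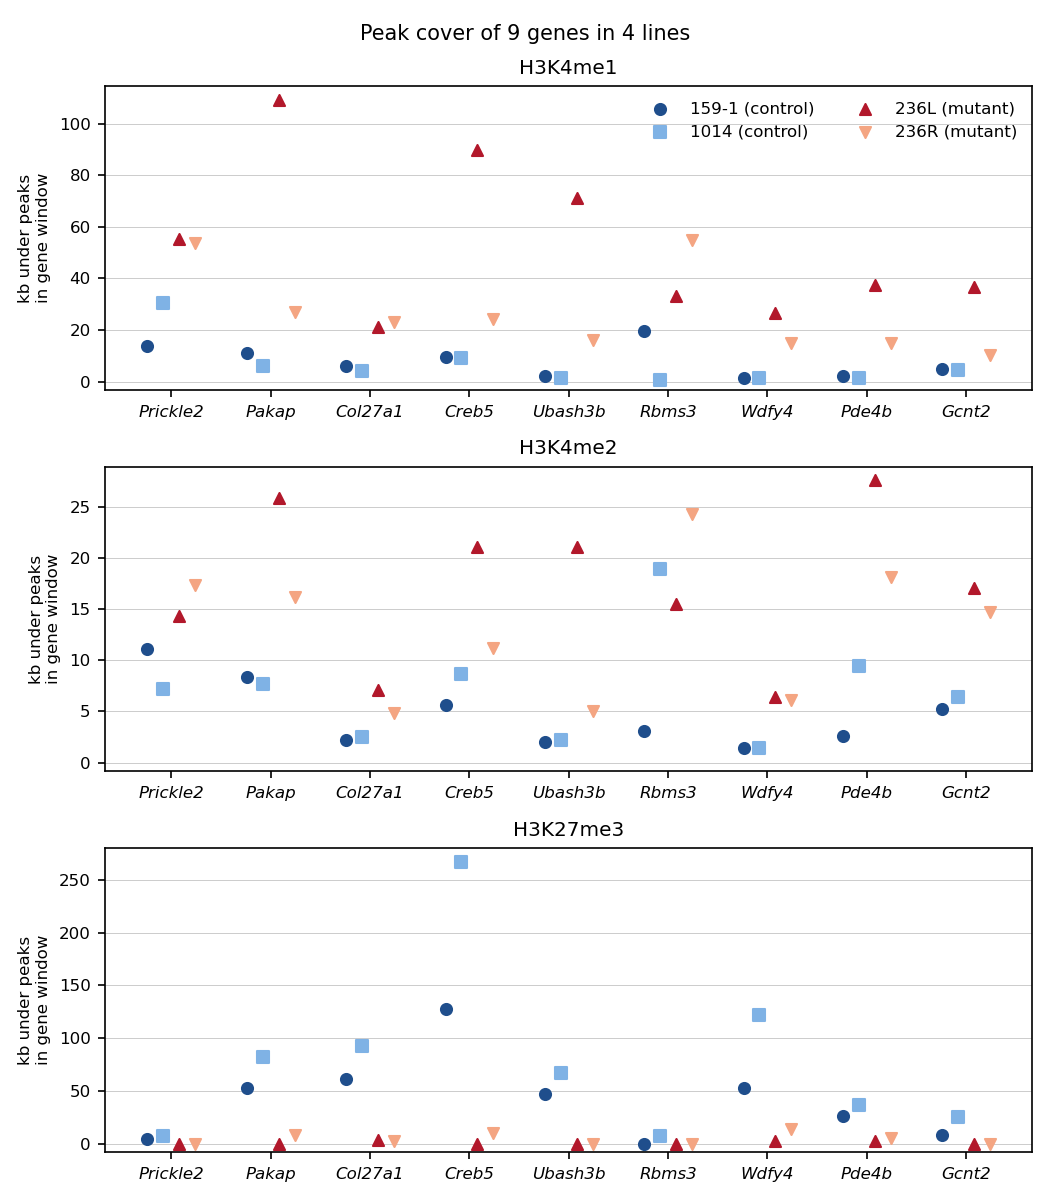
kb under peaks in the gene window (y axis, linear, 1 scale per mark) of each of the 9 genes, with 1 point per line. The H3K4me1 points of both mutant lines lie above both control points at all 9 genes, the H3K4me2 points do so at 8, and the H3K27me3 points of both mutant lines lie below both control points at 8.

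Seen together in the plot of cover by line, H3K4me1 was higher in both mutant lines at 9 of 9 genes, where 5.3% of all genes were, and H3K4me2 at 8 of 9, where 1.36% were. Both marks were higher at 8 of 9 genes against 0.795% of all genes. These counts follow from how the genes were chosen, and nothing is read from them. The median difference between the mean of the mutant lines and the mean of the control lines was 32.2 kb for H3K4me1 and 9.03 kb for H3K4me2 over the 9 genes, beside 0.203 and 0 kb over all genes. The windows are long, 121 to 1077 kb with a median of 355 kb, against a median of 37.2 kb for all genes, and a sum of kb grows with the window. As a share of the window, the median H3K4me1 cover of the 9 genes was 2.20% in 159-1, 1.27% in 1014, 15.5% in 236L and 5.89% in 236R, beside 3.77, 4.11, 6.58 and 4.85% over all genes. In H3K4me1 the median share of the 9 genes was thus below that of all genes in controls, and above it in mutants. Single genes differed, with 8.62% at Prickle2 in 1014 and 3.08% at Rbms3 in 236L. The median H3K4me2 share was 1.29, 1.76, 5.07 and 3.35% in the same order, beside 6.53, 6.67, 6.48 and 6.08% over all genes. In that mark the median of the 9 genes was below that of all genes in each line, although Gcnt2 had 14.1% in 236L and 12.1% in 236R. For the H3K4me2 call, 5 of 9 kept it with peaks of a −log10 q of at least 3 alone (Prickle2, Pakap, Wdfy4, Pde4b and Gcnt2), and 3 of 9 passed a gap of 5 kb (Pakap, Pde4b and Gcnt2).

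Creb5 had 11 and 12 H3K4me1 peaks in controls, 45 in 236L and 20 in 236R, and Pakap had 8, 6, 47 and 15. At Col27a1 the rise in 236R came in few, long peaks: it had 7 there, the longest of 11.1 kb, against 4 and 5 in controls, the longest of 2.28 kb. The strongest H3K4me1 peak of a gene, by the fold over background that the authors deposited, ranked high in both mutant lists at each gene. Its rank ran from the 89.6th percentile (Rbms3) to the 99.5th (Col27a1) in 236L, and from 86.9 (Gcnt2) to 99.2 (Col27a1) in 236R. In 159-1 the same percentile ran from 45.3 (Wdfy4) to 97.3 (Prickle2), and in 1014 from 11.8 (Rbms3) to 98.5 (Prickle2), with 61.7 at Wdfy4. A window with more peaks more often holds a high-ranked one, and the genes were chosen by this mark.

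The 2 mutant lines gained H3K4me1 largely at different bases. Over the 9 genes, 451 kb in 236L and 159 kb in 236R lay under H3K4me1 peaks that neither control line had, and 45.1 kb of these were common to both. The common bases were 9.99% of those gained in 236L and 28.3% of those in 236R. Over all gene windows the same shares were 10.2 and 33.1%, so the 9 genes were near the rest of the genome. H3K4me2 was shared more often, 27.5 kb of 121 and 64.1 kb, or 22.7 and 43.0%, beside 13.4 and 36.7% over all gene windows. Genes differed widely: 53.1% of the H3K4me2 gained at Gcnt2 in 236L was also gained in 236R, against 6.73% at Wdfy4. For H3K4me1, 67.9% of the gain of 236R at Ubash3b was also in 236L, against 10.9% at Rbms3.

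**Figure D3:**
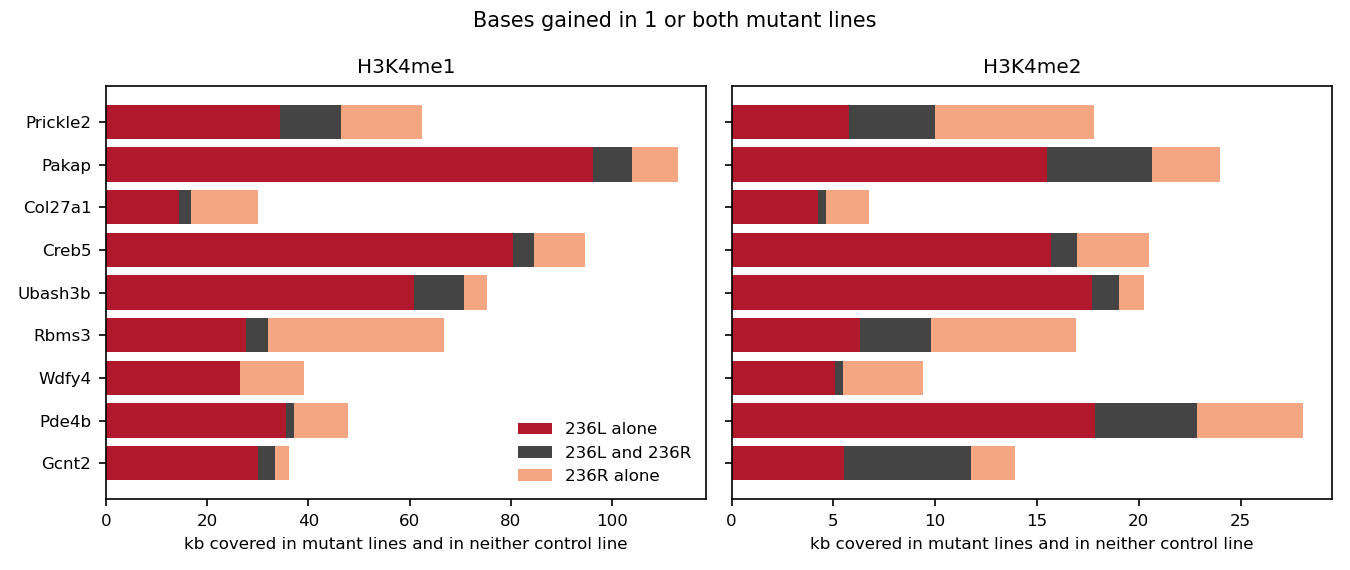
kb under peaks in 236L, in 236R or in both, and in neither control line, for H3K4me1 and H3K4me2 (x axes in kb, separate scales) at each gene. The dark segments common to both mutant lines are short, 45.1 kb over all 9 genes for H3K4me1 and 27.5 kb for H3K4me2, and Wdfy4 has none for H3K4me1.

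Segments of at least 500 bases that were gained in both mutant lines numbered 34 for H3K4me1 (36.0 kb) and 16 for H3K4me2 (21.2 kb). Of these, 33 and 15 lay inside the gene body. Most of each window is gene body, with 10 kb flanks in windows of 121 to 1077 kb, so nothing is read from these counts. H3K4me2 segments lay nearer to starts, with 9 of 16 within 2.5 kb of a listed start and a median distance of 2232 bases, against 8 of 34 and 15440 bases for H3K4me1. The same values over the gained segments of all gene windows are not given here. Prickle2 had the most H3K4me1 segments, 10, none of them under H3K27me3 in any line. Ubash3b had 7 and Pakap 6. Wdfy4 had no such segment in either mark and Col27a1 none in H3K4me2. Only Pakap, Ubash3b, Rbms3 and Gcnt2 had bases gained in both marks, 2.48, 0.270, 1.70 and 2.23 kb.

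H3K27me3 was not used to choose the genes. It was lower in both mutant lines at 8 of 9 genes, all but Rbms3, with 4.45 kb (Prickle2) to 117 kb (Creb5) between the lowest control and the highest mutant line. Among all genes 6.43% were lower by the same rule, and among the 2396 genes with a window at least as long as the shortest of the 9 the share was 11.5%. All 8 had at least 2 kb in both controls, and of the 2661 genes of that kind 52.9% were lower. Prickle2, Ubash3b and Gcnt2 had no H3K27me3 peak in either mutant line, 3 of 8, where 10.5% of those 2661 genes had none. None of the 9 was higher, against 0.425% of all genes. In an exact two-sided permutation test of the lines each of the 8 genes gave p = 0.333, the smallest that 2 lines against 2 can give, so this design cannot reach 0.05 for any gene. Summed over the 9 genes, H3K27me3 was 381 and 705 kb in controls against 7.49 and 38.5 kb, and this was 0.840 and 0.640% of all H3K27me3 cover in controls against 0.0544 and 0.126% in 236L and 236R. The share was lower in the mutants as well as the length.

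The H3K27me3 count depended on the length of the lists. With every H3K27me3 list reduced to its 13.77 Mb of highest-ranked peaks, the call held at 3 of 9 genes, Col27a1, Creb5 and Pde4b, where 1.45% of all genes met it. Under that setting Col27a1 had 17.6 and 24.0 kb in controls against 3.19 and 1.17 kb, and Creb5 18.2 and 18.8 kb against 0 and 6.39 kb. The groups overlapped at Pakap, where 1014 had 4.02 kb and 236R 5.58 kb. They also overlapped at Wdfy4, with 6.48 kb in 159-1, 0 in 1014, 2.17 kb in 236L and 0.819 kb in 236R, so 1014 lay below both mutant lines. Ubash3b had 6.63 kb in 159-1 and none in the other 3 lines, and Prickle2 and Gcnt2 likewise had 3.10 and 0.306 kb in 159-1 alone. With peaks of a −log10 q of at least 3 alone, 3 of 9 genes were called, Prickle2, Pakap and Col27a1, beside 2.67% of all genes. Only Col27a1 was called under both settings.

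**Figure D4:**
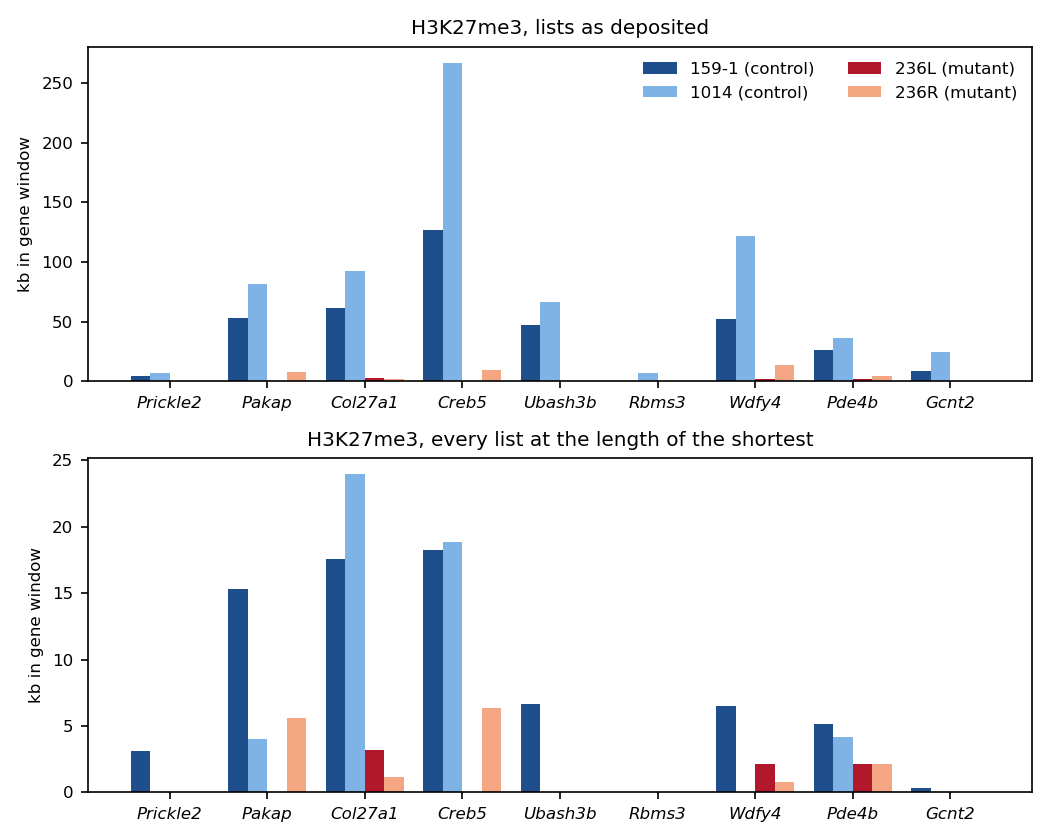
H3K27me3 cover of each gene window in kb (bars, 1 per line, axes from 0, separate scales) with the lists as deposited (top) and with every list reduced to the 13.77 Mb of the shortest (bottom). Creb5 and Col27a1 stay above both mutant lines in both controls in each panel. In the lower panel Prickle2, Ubash3b, Wdfy4 and Gcnt2 keep control cover in 159-1 alone, and at Wdfy4 both mutant lines lie above 1014.

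The gained H3K4 segments lay under control H3K27me3 in part. Of the H3K4me1 bases gained in both mutant lines, 23.1 and 37.2% were under H3K27me3 peaks in 159-1 and 1014, beside 12.99 and 17.4% over all gene windows. For H3K4me2 the shares were 23.2 and 48.6%, beside 37.7 and 47.7%. The 9 genes were therefore above the other windows in H3K4me1 and not above them in H3K4me2 for 159-1. These shares fell to 12.8 and 8.35% for H3K4me1 at equal list length, a setting that also cut the control H3K27me3 lists to 13.77 Mb. The shares over all gene windows at that length are not given here, so the fall cannot be compared with them. With the lists as deposited, 0.787 and 4.53% of the gained H3K4me1 bases were under H3K27me3 in 236L and 236R, beside 12.1 and 11.1% over all gene windows. At the 24 starts H3K27me3 was shorter by at least 1 kb in both mutant lines at 10 (3.63% of all listed starts) and longer at none (0.247%). The 24 starts belong to 9 genes and are not separate units. Pakap starts 2 and 3, for example, had the same values, 4.04, 4.12, 0 and 2.498 kb. The 3.63% is over starts with and without H3K27me3 in controls, and the count was not repeated at equal list length. H3K4me1 was longer by that distance at 2 of the 24 (5.15% of all listed starts) and H3K4me2 at 3 (1.32%), which the choice of genes favours. Across all genes, 135 of the 298 with more H3K4me2 also had less H3K27me3 (45.3% of them, and 9.59% of the 1407 with less), against 181 of the 1160 with more H3K4me1 (15.6 and 12.9%).

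KDM6A, which could be compared with the gains only in position, had a peak in the window in both controls at 4 of 9 genes, Prickle2, Creb5, Ubash3b and Pde4b. All genes had one in both lines in 62.3% of cases, and 78.4% of genes with windows as long did. Pakap, Col27a1, Rbms3 and Gcnt2 had KDM6A peaks in 159-1 alone, and Wdfy4 in neither line. Without 1014 the count, which can only rise when a line is left out, was 8 of 9, and 68.6% of all genes. Cover was short, 1.54 and 3.79 kb at Prickle2, the longest in 1014, and 3.45 and 0.753 kb at Creb5. Of the gained segments, 33 of 34 for H3K4me1 and 16 of 16 for H3K4me2 held no KDM6A peak in either line. KDM6A covered only 12.6 and 6.05 kb summed over the 9 windows in 159-1 and 1014. The median share of a window was 0.360 and 0%, beside 1.81 and 1.39% over all genes, so short segments would mostly miss it. The share of gained segments without KDM6A over all gene windows is not given here, and nothing is read from these counts. Over all gene windows 16.4 and 14.5% of the gained H3K4me1 bases were under KDM6A peaks in 159-1 and 1014, against 0.971 and 0% at the 9 genes. For gained H3K4me2 the shares were 3.14 and 1.64% over all gene windows, against 0 and 0% at the 9 genes.

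Summed over the macrophage markers, H3K4me1 cover was longest in 236L, and so had 7 of the 9 genes, all but Col27a1 and Rbms3. H3K4me1 summed over the 9 genes was 70.8 and 59.0 kb in 159-1 and 1014, 481 kb in 236L and 239 kb in 236R, and H3K4me2 41.6, 64.6, 156 and 118 kb. In 236R each of the 9 genes was above both control lines in both marks, which their choice favours. The macrophage sums of 236R were below both control lines, and nothing is read from the contrast. Single macrophage markers differed: in 236R, H3K4me1 lay above both control lines at 5 of 16 and below both at 5, and H3K4me2 above at 4 and below at 8. Cx3cr1, the fractalkine receptor, was called with more H3K4me1 (2.10, 1.33, 19.9 and 4.17 kb) and C1qa, a complement subunit, with less (16.9, 19.2, 13.8 and 10.9 kb). Adgre1 and Mpeg1 carried no H3K4me1 peak in 236R, Ptprc had 0.469 kb against 22.1 kb in 236L, and Csf1r 0.239 kb against 27.7 kb. H3K27me3 over the macrophage markers was 46.8, 87.3, 4.16 and 73.2 kb, so 236R lay between the controls there and far below them at the 9 genes. The part of macrophage cover in the values of 236L was not tested. Lymphocyte markers (10 genes) summed to 24.1, 29.9, 50.2 and 21.2 kb of H3K4me1, fibroblast markers (9 genes) to 22.7, 15.7, 30.4 and 40.5 kb and endothelial markers (8 genes) to 73.9, 80.3, 45.6 and 63.8 kb. Of the 5 marker lists, that of fibroblasts alone had a longer H3K4me1 sum in both mutants than in both controls, with 1 of 9 genes called. Its H3K4me2 sums were 15.6, 17.6, 25.3 and 24.1 kb, and its part in the results was not tested. The called gene, Pdgfrb, a receptor of fibroblasts and pericytes, had 8.02, 1.94, 22.1 and 15.4 kb of H3K4me1, and without it the H3K4me1 sums were 14.7, 13.8, 8.23 and 25.1 kb, lowest in 236L. In H3K4me2 the called gene was Pdgfra, another receptor of this family, with 5.03, 5.61, 8.21 and 9.16 kb.

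**Figure D5:**
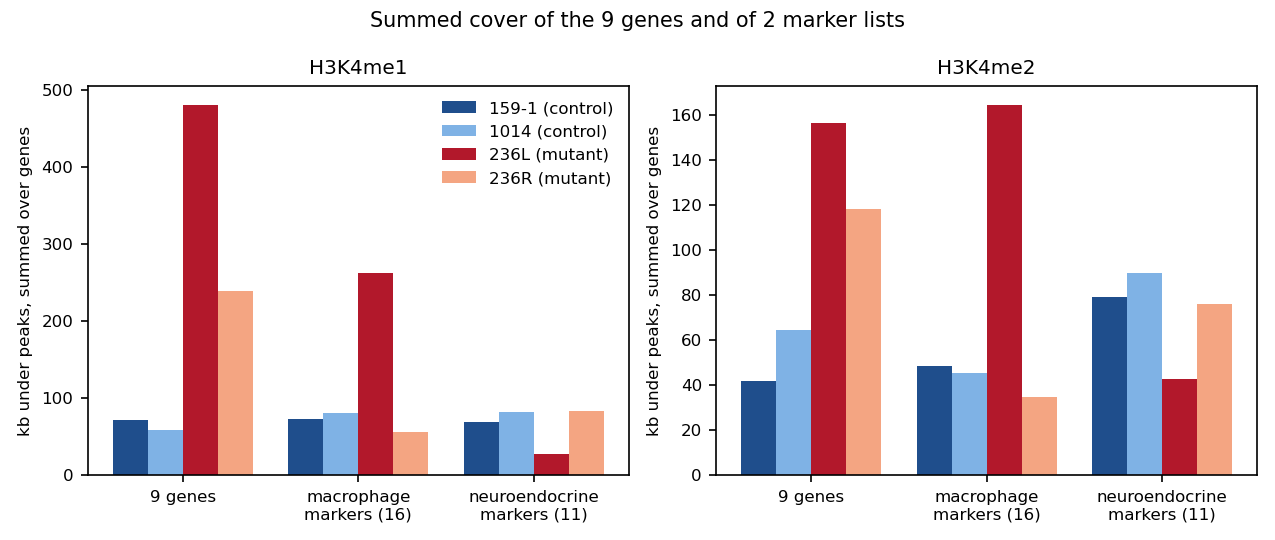
H3K4me1 and H3K4me2 kb summed over the 9 genes, 16 macrophage markers and 11 neuroendocrine markers (bars, 1 per line, axes from 0). The 9 genes are highest in 236L and second in 236R, and the macrophage markers are high in 236L alone. The choice of the 9 genes favours their higher bars in the mutant lines.

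Relatives of the 9 genes were mostly not called. Of 71 genes in 8 lists of their families and pathways, H3K4me1 was higher at 4 and lower at 13 (5.63 and 18.3%), where 5.3 and 7.45% of all genes were. H3K4me2 was higher at 4 and lower at 9 (5.63 and 12.7%), where 1.36 and 6.37% of all genes were. H3K27me3 was lower at 4 and higher at 1 (5.63 and 1.41%), where 6.43 and 0.425% of all genes were. Among 14 other planar polarity genes, H3K4me1 was higher at Dvl2 alone (7.28, 5.58, 14.9 and 12.7 kb) and lower at 5, among them the cadherin Celsr1 (46.0, 72.1, 8.04 and 27.1 kb) and the membrane protein Vangl1 (24.1, 23.0, 0 and 7.52 kb). Prickle1, the closest relative of Prickle2, had less H3K27me3 (30.1, 42.6, 4.29 and 7.97 kb). Of 18 genes of protein kinase A anchoring and cAMP, H3K4me1 was higher at Pde4d, another phosphodiesterase (44.5, 36.4, 64.5 and 51.6 kb), and lower at 4, among them Akap1 and Prkar1b. H3K4me2 was higher at Pde4a, Akap6 and Akap7 and lower at Akap1 and Prkar1b.

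Of 11 CREB and ATF genes only Crtc1, a CREB coactivator, was called, with less H3K4me1 (26.98, 32.4, 14.5 and 7.85 kb) and less H3K4me2. Of 10 fibrillar collagens Col5a1 had less H3K4me1, Col24a1 less H3K4me2, Col1a2 and Col2a1 less H3K27me3 and Col11a2 more H3K27me3. Rbms1 had more H3K4me2 (6.04, 9.55, 12.5 and 12.8 kb). Of 7 BEACH domain genes Lyst (2.94, 2.58, 24.0 and 6.07 kb) and Nbeal2 had more H3K4me1, and Lrba and Nbea less. None of the 5 genes of the UBASH3 list or the 4 of the GCNT list was called in any mark.

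The 5 genes outside these windows whose pattern over 8 values (both H3K4 marks in 4 lines) was most like the mean of the 9 genes, out of 1480 with at least 10 kb of H3K4me2 in the mean of the mutant lines, were Smarcal1, Usp5, Lhx9, Abi3 and Cd274, with Pearson r of 0.987, 0.984, 0.981, 0.977 and 0.976. The 8 values come from 4 lines and share their libraries, so r is a description. H3K27me3 did not follow in all of them: Lhx9, a LIM homeodomain factor, had 14.3, 23.7, 4.18 and 2.28 kb, Abi3 had 28.9, 32.4, 0 and 27.1 kb, and Cd274, the gene of the immune checkpoint ligand PD-L1, had none in any line. H3K4me1 at Cd274 was 0, 0.763, 12.5 and 5.70 kb.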

How the data were processed

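Peak lists of 14 ChIP-seq libraries were used. The submitters' processing notes name Bowtie2 2.4.2, MACS3 3.0.0a7 and the mm10 genome. Peak threshold and control track: not given in the sources used here. Lists are per library, and nothing was pooled. For each peak the authors deposited a fold over background (a linear ratio) and a −log10 p-value and −log10 q-value. Fold and q served to order peaks inside 1 list. In 1 alternative the same limit, a −log10 q of at least 3, was set on every list, although their depth is unknown. Deposited folds ran from 1.20 upwards and −log10 q from 1.01. No read counts were used, so depth is unknown and no counting interval can be given.

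Per library, peaks of chromosomes 1 to 19, X and Y were merged, while 337 peaks of other contigs were set aside. Covered kb was summed in windows of 21887 protein-coding genes of the RefSeq table of GRCm38.p6 (mm10). A call needed a gap of 2 kb between groups of 2 lines. Segments gained were bases under peaks in both mutant and neither control line. Promoters of all 9 genes were found, with 24 listed starts. Python 3.11.15, numpy 2.4.6 and pandas 2.3.3 were used, and the window sums were tested on simulated peaks. The genes and lists were chosen with earlier results of these data known. All 9 genes were named, and of related lists the genes passing the call, at most 4 per list and mark by gap. Alternatives were other windows, gaps and peak thresholds, equal covered length and leaving out each line.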

Additional observations from a re-analysis of the deposited data

How the results depend on the processing

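Read depth is unknown and each group has 2 lines, so list length and genotype cannot be separated. For single genes, 72 values per mark were computed under other settings, and all kept their direction except 2 of H3K27me3 that were 0. H3K4me1 counts of the 9 genes were 9 under the settings run, which their choice favours. Leaving out a line can only keep or raise a count of calls. Of the 9 genes, 5 had more H3K4me2 with peaks of a −log10 q of at least 3 alone and 3 with a gap of 5 kb. Less H3K27me3 was called at 3 under that q and at 3 with equal covered length. KDM6A was in both control lines at 8 with 50 kb flanks, and at 4 to 8 leaving out a line.

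Counts over all genes moved widely. With no flank, 50 kb flanks, a gap of 5 kb and any gap, more H3K4me1 was called at 283, 2810, 139 and 5489 genes, more H3K4me2 at 117, 688, 48 and 3042, more H3K27me3 at 45, 239, 25 and 466, and less H3K27me3 at 843, 2702, 771 and 2660. That q and equal length gave 10 and 198 for more H3K27me3 and 585 and 317 for less. Leaving out a line gave 1721 to 6502 for more H3K4me1, 457 to 2251 for more H3K4me2, 103 to 880 for more H3K27me3 and 1529 to 3698 for less, with the highest counts without 236R in the first 3 and without 159-1 in the last.

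Control H3K27me3 under gained H3K4me1 in 159-1 was 11.2% with segments of at least 1000 bases, 0% under that q and 12.8% at equal length. In 1014 it was 34.6, 46.7 and 8.35% under the same settings, so under that q the 2 controls moved in opposite directions. Under gained H3K4me2 in 1014 it was 25.6% and 8.87% under the last 2 settings. Those 2 settings also cut the control H3K27me3 lists. The cause was not tested. No paired analysis was possible because the labels give no number that pairs a control with a mutant line.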
